A study of Yarrowia lipolytica with 4 samples.

Results

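Vacuole and autophagy genes of the oil-storing yeast Yarrowia lipolytica were followed in a strain that lacks SUR2, the C4-hydroxylase of sphingoid bases, and in its parent. The members were the protein-coding genes whose annotation text speaks of the vacuole or of autophagy, or carries an ATG, APG, AUT, CVT, VMA, VPS or PEP symbol. They numbered 75 of 6447 protein-coding genes, after 6 of 81 matches had been left out (transporters and a trehalase). One of them, Vps28, matched only with the case of the symbol ignored. By their annotation text 11 were placed under autophagy, 13 under the V-ATPase, 36 under sorting, 7 under proteolysis and 8 under other functions. Their names and roles were mostly given by similarity to Saccharomyces cerevisiae, and the roles below are those known from that yeast. Of the 8 other genes 3 were not taken as vacuolar, because of their text or their deposited domains. YALI0_D24343g and YALI0_C11517g matched because the text describes their relative as a neighbour of PEP8 or VPS15. YALI0_F07491g is called a vacuolar aspartic protease, but its relative YAL048c is a mitochondrial GTPase and its deposited domains are of the Ras and EF-hand kinds.

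The deletion strain and its parent are derivatives of the leucine- and uracil-requiring strain PO1f. Each carried a disruption of KU70 (ku70Δ::tc), which encodes a subunit of the DNA end-joining complex. In the deletion strain SUR2 was also replaced by LEU2 (ku70Δ::tc sur2Δ::LEU2), and the parent is the strain labelled wild type, which has the KU70 disruption only. Cells were harvested from rich YPD medium at 28 °C at an OD600 of 0.8, and polyadenylated RNA of 2 libraries per strain was sequenced. Loss of SUR2 and gain of LEU2 cannot be told apart in this comparison. The labels do not say that the libraries of a strain came from separate cultures, so each p-value reflects variation among these libraries alone, part or all of which may be technical.

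The vacuole is the acidic, degradative compartment of a yeast cell and corresponds to the lysosome of animals. The V-ATPase pumps protons into it, and its soluble enzymes travel from the Golgi through endosomes, guided by sorting receptors and by the VPS proteins. Autophagy wraps cytoplasm in a double membrane that fuses with the vacuole, where proteases and a lipase break it down, and it is repressed in well-fed cells by TORC1, the nutrient-sensing kinase complex. Growth in rich medium, as here, is a state in which little autophagy is known to run.

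Totals ran from 8765729 to 16698719 counts, with the smallest in a deletion library. One library of either strain stood in a table by transcript and the other in a table by gene. A library is named here by its strain and its table, and pairs of values below give the transcript table's library before the gene table's. SUR2 (YALI0_E17347g) had 0 and 0 reads in the deletion libraries and 1402 and 1319 reads in the parent libraries (adjusted p = 0.00438 in edgeR's quasi-likelihood test). With the parent library of the transcript or of the gene table left out its adjusted p was 0.469 and 0.432 in edgeR, and these fits called no gene. The gene table's deletion library correlated least with the others, at r of 0.903 to 0.942 for log2 CPM across genes, against 0.946 to 0.963 among the other 3. Levels below are CPM (counts scaled to library size by TMM factors) and TPM, which is also scaled for length. Fold changes are of the deletion over the parent strain on CPM, and values after ± are their standard errors.

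None of the 75 members passed edgeR's test at an adjusted p of 0.05, in either direction, against 1.24% of the 6051 genes tested (0.992% higher and 0.248% lower in the deletion strain). At an unadjusted p under 0.05 the members numbered 3, against 12.4% of all genes tested. These were YALI0_A06435g, a relative of the vacuolar protease B gene PRB1, PEP1 (YALI0_E05247g), the receptor that sorts vacuolar hydrolases, and PEP12 (YALI0_E11825g), a syntaxin of the endosome. DESeq2 called 2 members, against 6.32% of the genes it tested, and both were higher in the deletion strain, as were 4.3% of those genes. They were PEP1 (adjusted p = 0.019) and YALI0_A06435g (adjusted p = 0.0368). Over all settings tried the adjusted p ran from 2.88e-06 to 0.93 for PEP1 and from 0.000857 to 0.847 for YALI0_A06435g. Limma on TPM called 0 members, against 3.33% of the genes it tested, and 7 members had an unadjusted p below 0.05, against 15.8% of the genes. With the table as a term in edgeR 0 members passed, against 2.4% of all genes, and 3 members had an unadjusted p below 0.05, against 11.8%. Leaving out the transcript table's deletion library gave 6 calls among the members, all higher in the deletion strain, against 11.2% of the genes tested in either direction and 7.31% higher. In that fit the deletion strain has 1 library, the gene table's, which is assumed to vary like the parent pair, so the spread comes from the parent libraries alone. Leaving out that of the gene table gave 0 calls, against 3.34%, and 1 member was at an unadjusted p under 0.05, against 10.8%.

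The median log2 fold change of the members was 0.19, against 0.03 over all genes tested, and 55 of 75 lay above 0, against 52.0% of all genes. The medians were 0.94 for proteolysis, 0.24 for sorting, 0.17 for the V-ATPase, 0.10 for autophagy and -0.03 for the other genes. The tables gave unlike pictures. Within the gene table the deletion library was above the parent library for 66 of 75 members (52.4% of all genes tested), and the median log2 ratio was 0.58. Within the transcript table it was above for 25 of 75 (49.3% of all genes tested), and the median was -0.21, while the medians over all genes were 0.04 and -0.01. The gene table's deletion library was the highest of the 4 for 50 of 75 members, against 30.3% of all genes tested. The members took 0.754% and 1.43% of the counts in the deletion libraries and 0.807% and 0.663% in the parent libraries. Without that library the medians were 0.19 for proteolysis, -0.23 for sorting, -0.15 for the V-ATPase and 0.0044 for autophagy.

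**Figure D1:**
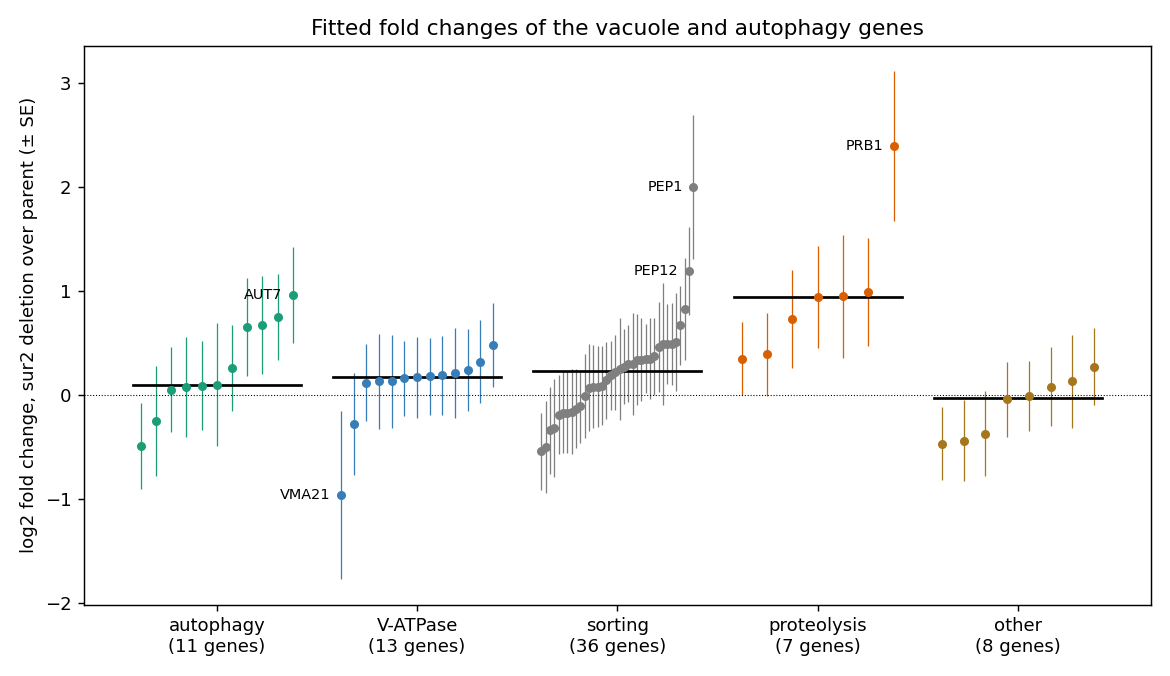
Each point is 1 gene, with its fitted log2 fold change (sur2 deletion over parent) and standard error on the vertical axis, grouped by function along the horizontal axis, and the black line is the median of the group. The proteolysis genes all lie above 0, with a median of 0.94, while the V-ATPase genes other than VMA21 lie between -0.28 and 0.48.

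**Figure D2:**
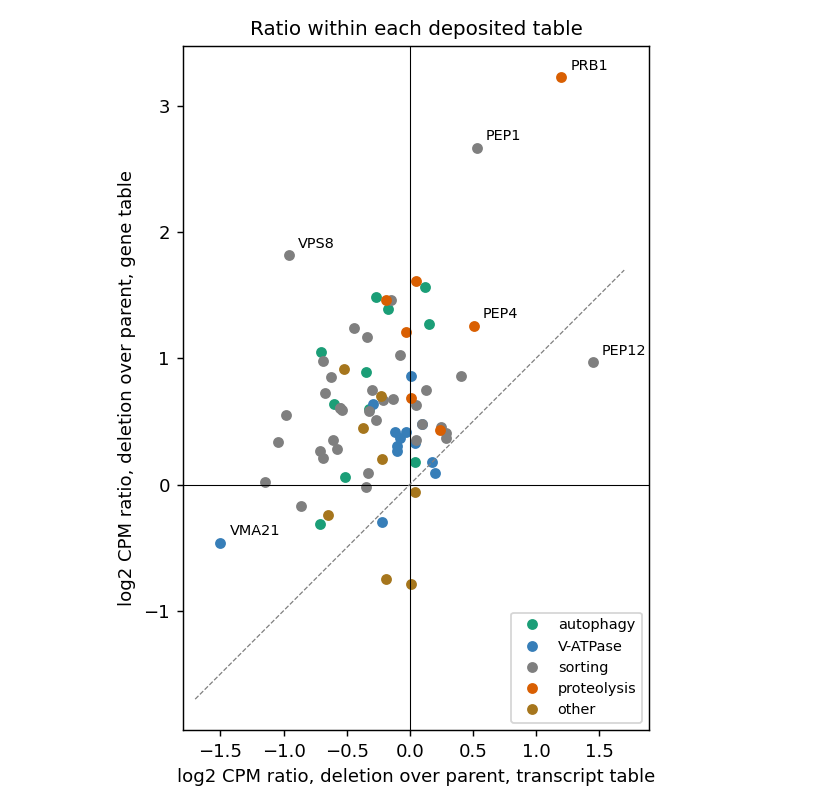
Each point is 1 gene, placed by its log2 CPM ratio of the deletion over the parent library within the transcript table (horizontal) and within the gene table (vertical), with the dashed line marking equal ratios. Most points lie above the dashed line, and 66 of 75 lie above 0 on the vertical axis but only 25 of 75 right of 0 on the horizontal axis. The point marked PRB1 is YALI0_A06435g.

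The proteolysis genes had the highest median log2 fold change of the groups, 0.94, and the largest single one, in YALI0_A06435g. Aspartyl protease PEP4 (YALI0_F27071g, chromosome F, 3443735 to 3445088), proteinase A, which activates the other vacuolar hydrolases, was the most abundant of all 75 members, with a mean of 456 TPM over the 4 libraries. It had 573 and 1314 CPM in the deletion libraries, against 401 and 551 CPM in the parent libraries. Both deletion libraries lay above both parent libraries, the transcript table's by little (log2 fold change 0.99 ± 0.52, adjusted p = 0.509, edgeR). A second gene with some similarity to PEP4 (YALI0_D02024g) had 63.6 and 78.2 CPM in the deletion libraries and 53.7 and 57.9 CPM in the parent libraries, a log2 fold change of 0.35 ± 0.35 (adjusted p = 0.793, edgeR).

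The more abundant PRB1 gene, YALI0_B16500g, encodes the subtilisin-like protease B. Its levels were 260 and 603 CPM in the deletion libraries and 251 and 197 CPM in the parent libraries (log2 fold change 0.94 ± 0.49, adjusted p = 0.509, edgeR). The deletion library of the gene table stood apart, and the other 3 lay close together. The other PRB1 relative, YALI0_A06435g, (chromosome A, 621641 to 623056) was per length the least abundant of the 75 members, with a mean of 3.31 TPM. It had 85 and 147 reads in the deletion libraries (4.96 and 15.0 CPM) and 37 and 19 reads in the parent libraries (2.16 and 1.61 CPM). Both deletion libraries were above both parent libraries, and the fitted difference was the largest of the members, at 5.25-fold (log2 fold change 2.39 ± 0.72, adjusted p = 0.213, edgeR).

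The aminopeptidases trim peptides in the vacuole. APE3 (YALI0_B21186g), aminopeptidase Y, had 77.8 and 311 CPM in the deletion libraries and 88.9 and 113 CPM in the parent libraries. The transcript table's deletion library was the lowest of the 4 and the gene table's the highest, so the groups overlapped (log2 fold change 0.95 ± 0.59, adjusted p = 0.603, edgeR). LAP4 (YALI0_F20592g), an aminopeptidase I that in S. cerevisiae reaches the vacuole by a selective branch of autophagy, had 54.6 and 137 CPM in the deletion libraries and 55.9 and 59.4 CPM in the parent libraries. Its log2 fold change was 0.73 ± 0.47 (adjusted p = 0.613, edgeR). The other LAP4 gene, YALI0_C10494g, was more abundant, at 223 and 343 CPM against 221 and 212 CPM, with a log2 fold change of 0.39 ± 0.40. In 5 of the 7 proteolysis genes both deletion libraries were above both parent libraries, against 22.1% of all genes tested, and in 0 were both below (20.2%). The median log2 ratio of the group was 0.05 within the transcript table and 1.26 within the gene table. For all 7 the gene table's deletion library was the highest. Together they took 0.129% and 0.312% of the counts of the deletion libraries and 0.111% and 0.101% of those of the parent libraries. With the gene table's deletion library left out, the log2 fold changes were 0.27 for PEP4 (YALI0_F27071g), 0.21 for YALI0_B16500g, 1.39 for YALI0_A06435g, -0.37 for APE3 and -0.08 for LAP4 (YALI0_F20592g). With that of the transcript table left out, YALI0_B16500g, YALI0_A06435g and APE3 passed (adjusted p = 0.041, 0.000857 and 0.00893, edgeR), with the spread taken from the parent pair alone.

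**Figure D3:**
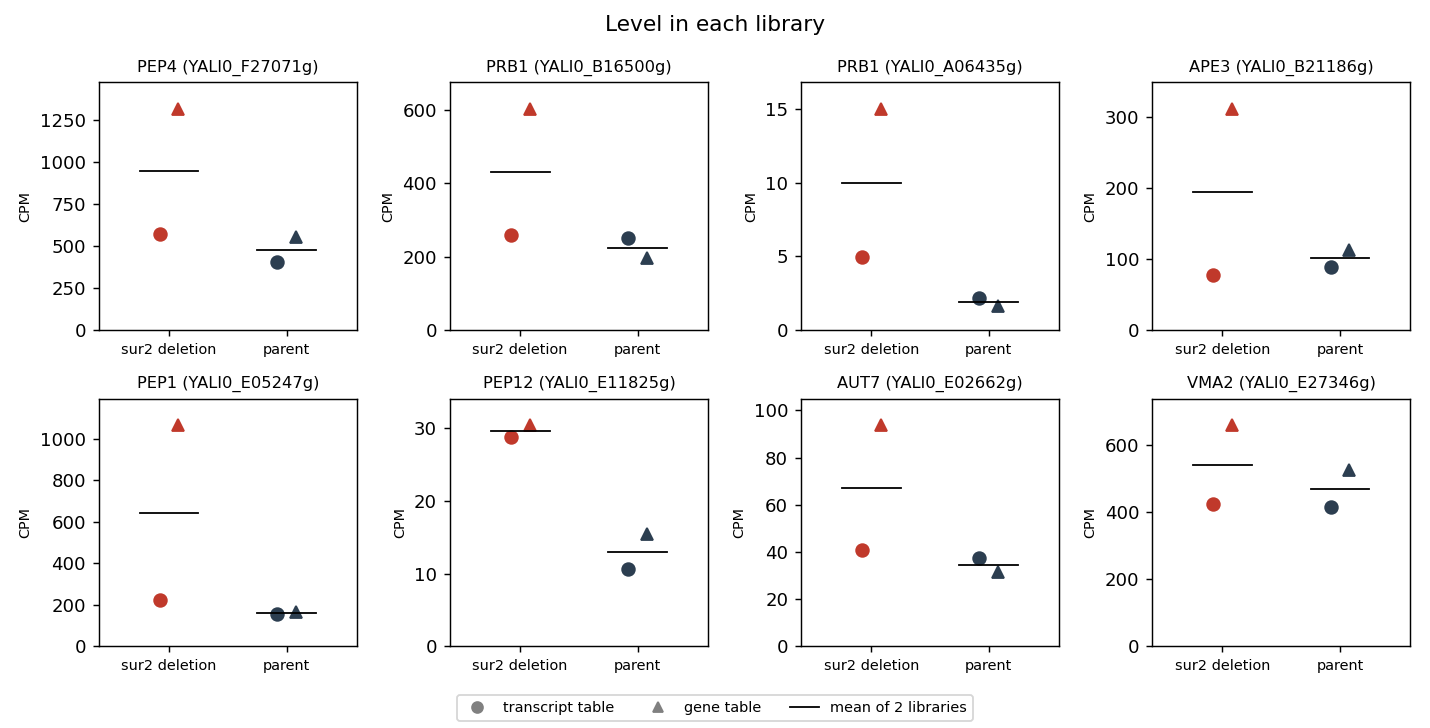
Each panel shows 1 gene, with CPM on the vertical axis from 0, sur2 deletion libraries in red at the left, parent libraries in dark blue at the right, circles for the transcript table, triangles for the gene table and a line at the mean of the 2 libraries. In PEP4, both PRB1 genes, APE3, PEP1 and AUT7 the red triangle stands far above the other 3 points, while both red points of PEP12 lie above both parent points, at 28.8 and 30.4 CPM against 10.6 and 15.5 CPM.

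Among the 36 sorting genes PEP1 (chromosome E, 574944 to 577415), also known as VPS10, had the largest difference. The receptor binds carboxypeptidase Y in the Golgi and returns from the endosome for further rounds. It had 3844 and 10405 reads in the deletion libraries and 2669 and 1976 reads in the parent libraries, or 224 and 1065 CPM against 156 and 167 CPM. Both deletion libraries were above both parent libraries, the gene table's by far more than the transcript table's. The fitted fold change was 3.99 (log2 fold change 2.0 ± 0.69, adjusted p = 0.27, edgeR), and the log2 ratio was 0.53 within the transcript table and 2.67 within the gene table. With the deletion library of the gene table left out the log2 fold change of PEP1 was 0.47 (adjusted p = 0.93, edgeR). With that of the transcript table left out it had 2.72 and passed (adjusted p = 2.88e-06, edgeR), again on the spread of the parent pair alone.

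Retromer carries that receptor back to the Golgi, and for each of its 5 subunit genes the deletion library was the lower in the transcript table and the higher in the gene table. VPS35 (YALI0_E17413g) had 158 and 368 CPM in the deletion libraries and 255 and 186 CPM in the parent libraries. PEP8 (YALI0_D23793g), the VPS26 subunit, had 53.4 and 153 CPM in the deletion libraries and 82.0 and 85.0 CPM in the parent libraries. The deletion strain held both the lowest and the highest library for VPS35 and PEP8. PEP11 (the VPS29 subunit), VPS5 and VPS17 likewise had log2 ratios of -0.34, -0.30 and -0.67 within the transcript table and 1.17, 0.75 and 0.73 within the gene table. The fitted log2 fold changes of the 5 ran from 0.07 for VPS17 to 0.46 for PEP11, and that of the retromer-associated sorting nexin MVP1 was 0.22 ± 0.36. VPS35 lies on chromosome E at 2055760 to 2058306, 5087 bases from the deleted SUR2 (2049611 to 2050672) with 2 protein-coding genes between. The log2 fold change of VPS35 was 0.25 ± 0.49 (adjusted p = 0.908, edgeR).

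The syntaxin PEP12, which receives vesicles at the endosome, is annotated for 2 genes. PEP12 YALI0_E11825g (chromosome E, 1435236 to 1436015) had 493 and 297 reads in the deletion libraries and 181 and 183 reads in the parent libraries, or 28.8 and 30.4 CPM against 10.6 and 15.5 CPM. All 4 values kept the strains apart in both tables, with log2 ratios of 1.45 within the transcript table and 0.97 within the gene table (log2 fold change 1.19 ± 0.42, adjusted p = 0.287, edgeR). Over all settings its log2 fold change ran from 0.89 to 1.62 and its adjusted p from 0.122 to 0.818. The more abundant PEP12 gene, YALI0_C22275g, had 120 and 184 CPM in the deletion libraries and 126 and 89.9 CPM in the parent libraries (log2 fold change 0.49 ± 0.38), and its groups overlapped. Mean levels were 132 TPM for YALI0_C22275g and 23.4 TPM for YALI0_E11825g.

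The Rab GTPase VPS21, which marks early endosomes, also has 2 genes, per length the most abundant sorting members at 267 and 232 TPM. VPS21 YALI0_D07128g had 173 and 267 CPM in the deletion libraries and 130 and 147 CPM in the parent libraries, without overlap (log2 fold change 0.67 ± 0.38, adjusted p = 0.561, edgeR). VPS21 YALI0_F27181g had 132 and 229 CPM in the deletion libraries and 121 and 136 CPM in the parent libraries (0.49 ± 0.39). Their exchange factor VPS9 (YALI0_E32593g), the tether PEP7 (YALI0_E21824g) and VPS45, which guides SNARE assembly, had log2 fold changes of 0.37 ± 0.37, -0.13 ± 0.38 and 0.08 ± 0.39. At the vacuole the SNAREs VAM7 and NYV1 had log2 fold changes of 0.30 ± 0.37 and -0.50 ± 0.44. NYV1 (YALI0_B04026g) had 15.9 and 30.2 CPM in the deletion libraries and 35.4 and 29.7 CPM in the parent libraries, so that only the transcript table's deletion library stood low.

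The tethering subunits of the HOPS and CORVET complexes, which hold membranes together before fusion, were low members, with means of 7.05 to 20.0 TPM. VPS3 (YALI0_F17006g) had the lowest fold change of the sorting genes, with 44.2 and 50.4 CPM in the deletion libraries and 80.1 and 56.9 CPM in the parent libraries (log2 fold change -0.54 ± 0.37, adjusted p = 0.64, edgeR). Its groups did not overlap. VPS8 (YALI0_C22946g) had 33.1 and 95.3 CPM in the deletion libraries and 64.4 and 27.0 CPM in the parent libraries. The order of the strains turned round between the tables, with log2 ratios of -0.96 within the transcript table and 1.82 within the gene table. PEP5, VPS33 and VPS41 had fitted log2 fold changes of 0.51, -0.11 and -0.01.

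ESCRT proteins sort ubiquitinated cargo into the multivesicular body, and their 8 genes had a narrow range of log2 fold changes, from -0.17 to 0.35. The ATPase VPS4 (YALI0_B16368g), which takes ESCRT apart, had 129 and 151 CPM in the deletion libraries and 106 and 114 CPM in the parent libraries (0.35 ± 0.33), without overlap. VPS20 (26.5 and 35.8 against 25.7 and 23.2 CPM) and VPS24 (48.5 and 47.1 against 45.3 and 33.7 CPM) likewise had both deletion libraries above both parent libraries. Vps28 had both below, at 19.9 and 25.2 CPM against 25.3 and 25.5 CPM. For VPS20, VPS24 and Vps28 the nearest values of the strains almost met. VPS27, VPS36, YALI0_F19272g (printed VSP23 in the annotation) and YALI0_C10098g had log2 fold changes of 0.19, -0.16, -0.17 and 0.14. The phosphatidylinositol 3-kinase VPS34 (YALI0_F09559g), which serves both endosomal sorting and autophagy, was among the low members at 7.27 TPM. VPS34 had 21.1 and 27.5 CPM in the deletion libraries and 41.6 and 18.9 CPM in the parent libraries, so the parent held both extremes (log2 fold change -0.32 ± 0.47, adjusted p = 0.873, edgeR). With limma on TPM its log2 fold change was 0.14, where the median of all genes was 0.40. Its partners VPS15 and VPS30, of which VPS30 also serves autophagy, had -0.34 ± 0.42 and 0.09 ± 0.38. VPS13 (YALI0_F06791g), a lipid transfer protein at membrane contacts, had 95.3 and 264 CPM in the deletion libraries and 106 and 96.2 CPM in the parent libraries. Its log2 fold change was 0.83 ± 0.49 (adjusted p = 0.581, edgeR), and it was -0.08 with the deletion library of the gene table left out and 1.38 with that of the transcript table left out, when it passed (adjusted p = 0.0362) on the spread of the parent pair alone. The dynamin VPS1 and the Golgi tether subunit VPS53 had 0.34 ± 0.40 and -0.19 ± 0.38, and the unnamed sorting gene YALI0_A03553g had 0.08 ± 0.40. Of the 36 sorting genes, 6 had both deletion libraries above both parent libraries and 2 had both below, against 22.1% and 20.2% of all genes tested.

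The 11 autophagy genes stood at lower levels than the other groups, with a median of 14.9 TPM against 35.0 TPM over all genes tested. AUT7 (YALI0_E02662g, chromosome E, 291082 to 291631), the ubiquitin-like ATG8 that is joined to the lipid of the growing autophagosome, was per length by far the most abundant of them, at 206 TPM. It had 700 and 915 reads in the deletion libraries and 644 and 372 reads in the parent libraries, or 40.9 and 93.6 CPM against 37.6 and 31.5 CPM. Both deletion libraries were above both parent libraries, with the transcript table's deletion library close to the parent (log2 fold change 0.96 ± 0.46, adjusted p = 0.465, edgeR). With the deletion library of the gene table left out AUT7 had 0.24. With that of the transcript table left out it had 1.43 and passed (adjusted p = 0.0278, edgeR), on the spread of the parent pair alone.

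The enzymes that join AUT7 to lipid did not share 1 pattern. AUT1 (YALI0_E24453g), the ATG3 conjugating enzyme, had 37.9 and 64.4 CPM in the deletion libraries and 34.1 and 26.6 CPM in the parent libraries (log2 fold change 0.75 ± 0.41, adjusted p = 0.53, edgeR). APG7 (YALI0_C20119g), the activating enzyme of both conjugation branches, had 14.5 and 19.6 CPM in the deletion libraries and 23.7 and 24.3 CPM in the parent libraries. Both deletion libraries of APG7 lay below both parent libraries (log2 fold change -0.49 ± 0.41, adjusted p = 0.727, edgeR). Of the 11 autophagy genes 2 had both deletion libraries above both parent libraries and 1 had both below. The shares over all genes tested were 22.1% and 20.2%. The protease AUT2 (ATG4), which trims AUT7, had 0.05 ± 0.41. The other branch joins APG12 to APG5, with APG16 as partner, and their log2 fold changes were 0.09 ± 0.43, -0.25 ± 0.53 and 0.10 ± 0.59. APG16 (YALI0_E22737g) and APG12 came next per length, at 34.3 TPM each, and APG16 rested on 78 and 42 reads in the deletion libraries and 76 and 45 reads in the parent libraries.

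The genes that start autophagy differed in opposite directions in the tables. The kinase APG1 (YALI0_D25388g), which TORC1 restrains, had 28.4 and 58.0 CPM in the deletion libraries and 34.3 and 20.6 CPM in the parent libraries. Its regulatory partner APG13 (YALI0_F03432g) had 21.3 and 42.7 CPM in the deletion libraries and 23.9 and 16.3 CPM in the parent libraries. For both genes the deletion library was the lower in the transcript table and the higher in the gene table, with fitted log2 fold changes of 0.65 ± 0.47 and 0.67 ± 0.47 (adjusted p = 0.665 and 0.653, edgeR). ATG9 (YALI0_F08349g), the membrane protein that seeds the autophagosome, and CVT17 (YALI0_F06358g), the ATG15 lipase that opens autophagic bodies in the vacuole, had 0.26 ± 0.41 and 0.08 ± 0.48. The deletion library had the higher value for 10 of 11 autophagy genes within the gene table and for 3 of 11 within the transcript table. The group medians were 0.89 and -0.32.

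The V-ATPase couples a membrane sector, V0, through which protons pass, to a cytosolic sector, V1, which splits ATP. The 12 subunit genes had log2 fold changes between -0.28 and 0.48, and all 8 V1 genes lay between 0.12 and 0.24. Within the transcript table the deletion library was above the parent library for 2 of the 8 V1 genes (49.3% of all genes tested). Within the gene table it was above for all 8 (52.4%). The median log2 ratios of V1 were -0.09 and 0.35. VMA1 (YALI0_A09900g), the catalytic subunit, had 296 and 544 CPM in the deletion libraries and 317 and 451 CPM in the parent libraries (0.13 ± 0.46). VMA2 (YALI0_E27346g), the other large subunit of V1, had 425 and 659 CPM in the deletion libraries and 415 and 526 CPM in the parent libraries (0.21 ± 0.43, adjusted p = 0.917, edgeR). In both genes the gene table's library was the higher of its strain, and the groups overlapped. VMA5 and VMA10, stalk subunits of V1, had log2 fold changes of 0.24 ± 0.39 and 0.19 ± 0.38. The annotation text of VMA10 names the V0 domain, but the gene is counted here under V1. VMA8, VMA13 and the genes of subunits E and F had 0.12, 0.17, 0.18 and 0.16.

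In V0 the largest subunit is VPH1 (YALI0_E09933g), which in S. cerevisiae marks the vacuolar form of the pump. Of the 12 subunit genes 1, VPH1, had both deletion libraries above both parent libraries (22.1% of all genes tested). In 0 were both below (20.2%). The log2 ratio of VPH1 within the transcript table was only 0.01. VPH1 had 174 and 288 CPM in the deletion libraries and 173 and 159 CPM in the parent libraries (log2 fold change 0.48 ± 0.40, adjusted p = 0.723, edgeR). VMA6 (YALI0_F16181g) had 220 and 329 CPM in the deletion libraries and 205 and 237 CPM in the parent libraries (0.32 ± 0.40). The proteolipids that form the rotating ring, CUP5 (YALI0_F24475g) and TFP3 (YALI0_E31471g), were high in both gene table libraries. TFP3 had 47.7 and 94.1 CPM in the deletion libraries and 55.5 and 116 CPM in the parent libraries, so the tables differed more than the strains (log2 fold change -0.28 ± 0.49). With limma on TPM its log2 fold change was 0.17, where the median of all genes was 0.40. CUP5 had 116 and 205 CPM in the deletion libraries and 101 and 192 CPM in the parent libraries (0.13 ± 0.45).

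Per length the V-ATPase genes were the most abundant group, with a median of 181 TPM. CUP5 led with a mean of 328 TPM, next came VMA10 with 322 TPM, and VPH1 was the lowest subunit at 54.0 TPM. VMA21 (YALI0_B23276g), which helps V0 assemble in the endoplasmic reticulum and is no subunit of the finished pump, was lower still at 16.7 TPM. It had only 6 and 6 reads in the deletion libraries and 17 and 10 reads in the parent libraries. Both deletion libraries were below both parent libraries, but the log2 fold change of -0.96 ± 0.81 was little larger than its error (adjusted p = 0.729, edgeR). On the TPM scale the median log2 fold change over all genes was 0.40, against 0.58 for the V-ATPase genes and 0.59 for all 75 members.

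**Figure D4:**
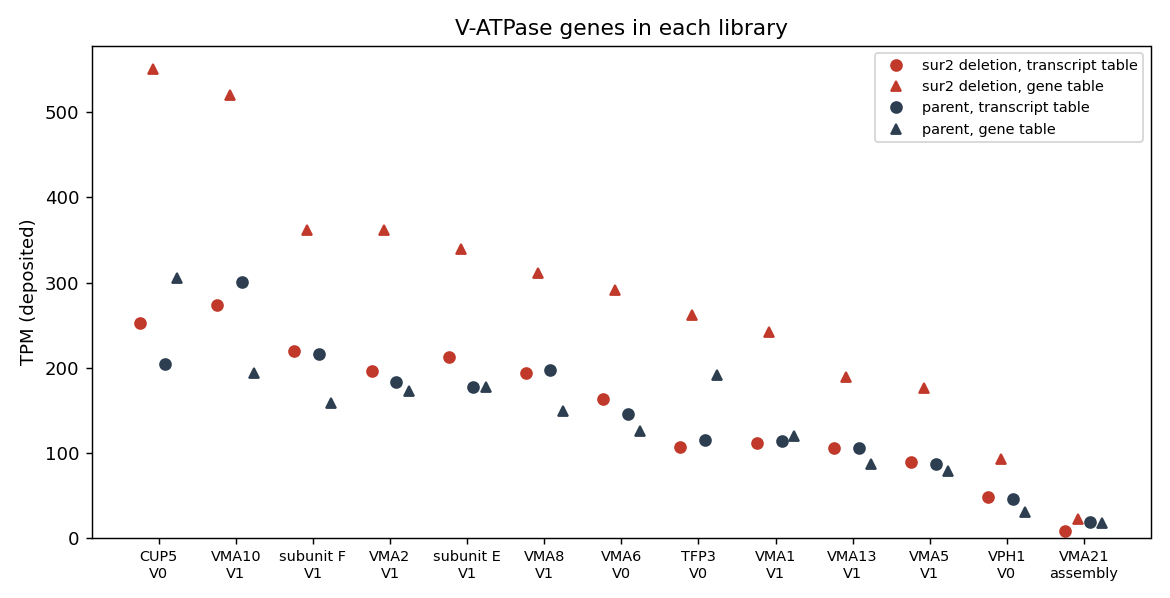
Deposited TPM (vertical axis, from 0) of the 13 V-ATPase genes in each library, ordered along the horizontal axis by mean TPM and marked with the sector of the pump, with sur2 deletion libraries in red, parent libraries in dark blue, circles for the transcript table and triangles for the gene table. The gene table's deletion library is the highest of the 4 for all 13 genes on this scale, on which the median of all genes was shifted too, and CUP5, at 252 and 551 TPM in the deletion libraries and 204 and 305 TPM in the parent libraries, leads the order.

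The remaining members did not share a direction. PHO8 (YALI0_F16709g), the vacuolar alkaline phosphatase, had 81.6 and 132 CPM in the deletion libraries and 95.5 and 81.3 CPM in the parent libraries (log2 fold change 0.27 ± 0.37, adjusted p = 0.858, edgeR). ZRT3 (YALI0_A00979g), which releases zinc from the vacuole, had 35.2 and 22.6 CPM in the deletion libraries and 40.2 and 38.1 CPM in the parent libraries, without overlap (-0.44 ± 0.39, adjusted p = 0.746, edgeR). VAC8 (YALI0_E13992g), which anchors the vacuole for inheritance, had 0.08 ± 0.38, and VID24, a subunit of the ligase that marks gluconeogenic enzymes for degradation, had 0.13 ± 0.45. VPS64, whose function the annotation calls unknown, had -0.04 ± 0.36. The 3 genes not taken as vacuolar had -0.47 ± 0.35 (YALI0_C11517g), -0.37 ± 0.41 (YALI0_D24343g) and -0.01 ± 0.34 (YALI0_F07491g).

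Other genes of these pathways, matched by symbol, held no call either. Of 12 genes matched to a list around TORC1 0 passed in edgeR (1.24% of all genes), 0 with DESeq2 (6.32%) and 0 with limma on TPM (3.33%), and 0 were at an unadjusted p under 0.05 in edgeR (12.4%). They were matched to TOR1, LST8, GTR1, GTR2, NPR2, IML1, SEH1, SCH9, TAP42, SNF1 and PHO85. The list is thus wider than TORC1 and its regulators. A list of 12 genes is short for such shares. Their median log2 fold change was 0.01. NPR2 (YALI0_F02783g), of the complex that inhibits TORC1 on nitrogen shortage, had 35.0 and 22.8 CPM in the deletion libraries and 73.7 and 40.9 CPM in the parent libraries. The deletion libraries were both below the parent libraries (log2 fold change -0.98 ± 0.44, adjusted p = 0.413, edgeR). GTR2 (YALI0_D10307g), a GTPase that activates TORC1 at the vacuole, had 37.8 and 42.6 CPM in the deletion libraries and 67.4 and 49.1 CPM in the parent libraries (-0.54 ± 0.36).

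Of 7 further fusion genes 0 passed with any of the 3 tools and 0 were at an unadjusted p under 0.05, against the same shares of 1.24%, 6.32%, 3.33% and 12.4% of all genes. Their median was 0.26. TLG1 (YALI0_B05786g), a syntaxin of the Golgi and endosome, had 153 and 140 CPM in the deletion libraries and 95.8 and 92.7 CPM in the parent libraries. The libraries of each strain lay close together there (log2 fold change 0.64 ± 0.32, adjusted p = 0.5, edgeR). YKT6 (YALI0_E21329g), a SNARE of several fusion steps, had 0.26 ± 0.35. Of 5 further genes of sorting into the multivesicular body 0 passed with any of the 3 tools and 0 were at an unadjusted p under 0.05, against those shares again. Their median was 0.44. The ubiquitin ligase RSP5 (YALI0_E18117g), which marks membrane proteins for the vacuole, had 386 and 562 CPM in the deletion libraries and 345 and 248 CPM in the parent libraries (0.68 ± 0.43, adjusted p = 0.606, edgeR). The adaptor GGA2 (YALI0_D27192g) had 152 and 325 CPM in the deletion libraries and 169 and 178 CPM in the parent libraries (0.46 ± 0.45), and only the gene table's deletion library stood apart.

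The pairs annotated to the same relative (PEP4, PRB1, LAP4, PEP12 and VPS21) may share reads, and how the counting treated shared reads, strand and overlapping genes is not given in the sources used here. Their separate values are uncertain to that extent.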

How the data were processed

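Read counts per transcript and per gene were deposited as whole numbers, per the file headers, and TPM, scaled for length and library size by the authors, per the file headers. The aligner, the counter, its strand setting and the genome build were not given in the sources used here, and positions are as printed in the deposited tables. Library preparation used the TruSeq Stranded mRNA kit, per the labels' protocols. Both tables were joined on 8381 shared features, and 1 feature in 1 table only was not used. Column names give the strain, Y1 in one table and Y2 in the other, and a further number. These may stand for replicates, but nothing in the sources used here ties them to the labels' replicate numbers. The libraries of a strain were taken as replicates from the labels. Their counts differed beyond sampling noise (chi-square over its degrees of freedom was 292.8 in the deletion pair and 144.8 in the parent pair). As the tables may have been counted differently, this does not show that they are independent.

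The 6051 genes left by filterByExpr entered edgeR 4.0.16 under R 4.3.3 (quasi-likelihood, strain only, TMM factors of 0.846 to 1.115, two-sided, Benjamini-Hochberg over all genes, threshold 0.05). Standard errors are the fold change over the root of F. Alternatives used DESeq2 1.42.0, other factors, no filter, limma 3.58.1 on log2(TPM + 1) or log2(TPM + 0.1) for a mean of at least 1 TPM, the table as a term, and 1 library left out. The fits were tested on simulated data. The simulated libraries varied less (dispersion 0.05) than those of these data (common dispersion 0.1424), so that test does not show how the fits behave here. A count of 3, the limit that a count of 0 allows, was 0.1797 to 0.3422 CPM, covering counting error only. The text names each member past the threshold, the 5 of smallest p and the 2 of highest TPM per group, fixed symbols, and 2 genes per further pathway list; further members are given by value only. The members, groups and lists were chosen with earlier results of these data known. No sequences are shown, because none were in the sources used here.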

Additional observations from a re-analysis of the deposited data

How the results depend on the processing

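All 4 libraries gave 75 calls over all genes with edgeR. DESeq2 gave 388, limma on TPM 196 (pseudocount 1) and 212 (pseudocount 0.1), edgeR with the table as a term 145, and leaving out 1 library 0 to 685 (204 without the deletion library of the gene table). The 0 calls without either parent library came with 414 and 361 genes at an unadjusted p under 0.05. Of the members 0 were called, 2 with DESeq2, and 0 to 6 with 1 library left out: the 6, without the transcript table's deletion library, were AUT7, PEP1, VPS13, both PRB1 genes and APE3. With relative log expression factors 0 members were called (77 of 6051 genes tested), and 3 were at an unadjusted p under 0.05 (763 genes). With no filter the members were 0 (96 of 6383 genes tested) and 3 (781 genes). Limma on TPM gave 0 and 7 members at either pseudocount. Over its 5886 genes it gave 196 and 928 at a pseudocount of 1, and 212 and 933 at 0.1. The table as a term gave 0 (145 of 6051 genes tested) and 3 members (713 genes). The autophagy and sorting medians of 0.10 and 0.24 were -0.04 to 0.59 and -0.23 to 0.45 with 1 library left out, that of proteolysis, 0.94, was 0.19 to 1.42, and that of the V-ATPase, 0.17, was 0.58 with limma on TPM at both pseudocounts and -0.15 to 0.44 with 1 library left out, and the proteolysis median was 0.0489 within the transcript table. The causes were not tested. Of all 75 members the sign turned in 0 with DESeq2, other factors or no filter, 1 with the table as a term, 14 with limma on TPM and 44 with any 1 library left out (31 without the deletion library of the gene table). Among the 39 genes named by rule, with limma on TPM at pseudocounts of 1 and 0.1, the log2 fold changes of TFP3 (0.17 and 0.17), VPS34 (0.14 and 0.18) and YALI0_D24343g (0.0119 and 0.012) turned positive. With limma on TPM at a pseudocount of 1 the median over all genes was 0.40, against 0.03 in edgeR. Each of these genes stayed below that median. Among the same 39, with 1 library left out, 13 members and GGA2 turned sign, 11 of these 14 when it was the deletion library of the gene table. The lowest and highest values were -0.0001 and 0.17 for APG16, -0.0049 and 0.57 for VMA6, -0.17 and 0.55 for VMA5, -0.85 and 0.36 for TFP3 (0.13 without the transcript table's deletion library), -0.34 and 0.67 for CUP5 (-0.2988 without the parent library of the transcript table), -0.11 and 0.43 for VMA10, -0.0848 and 1.38 for VPS13, -0.37 and 1.62 for APE3, -0.0791 and 1.25 for LAP4 (YALI0_F20592g), -0.12 and 0.58 for PHO8, -0.27 and 0.66 for VID24, -0.15 and 0.48 for VMA2, -0.78 and 0.32 for VPS34, and -0.19 and 0.90 for GGA2. No paired analysis was possible because the numbers in the column names could not be tied to the labels' replicate numbers. If the tables stand for replicates, the fit with the table as a term is the blocked one, with the 145 calls above and 0 among the members. Depth limits VMA21, with 6 to 17 reads, and the precision of all values rests on 2 libraries per strain.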
